A study of Mus musculus with 12 samples.

Results

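The insulin-like growth factor (IGF) system was followed in the tongue of mouse embryos through its 2 ligands, Igf1 and Igf2, its receptors Igf1r and Igf2r, and the 6 binding proteins Igfbp2 to Igfbp7. The genes were chosen by name as a family, but with earlier results of these data known, and Igfbp1 was placed with the wider pathway. All 10 were measured, among 18193 genes on the array, by 28 probe sets that carry a single gene symbol. Where a gene has several probe sets, the one with the highest mean signal stands for it, and the others are given beside it. Signals are on a log2 scale, so that a difference of 1 is a doubling.

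Tongues were taken at embryonic day 13.5 from C57BL/6J embryos of 2 genotypes, with 6 arrays each. Controls were Myf5-Cre;Smad4flox/+ and mutants Myf5-Cre;Smad4flox/flox. Both genotypes thus carry the Cre recombinase and at least 1 floxed copy of Smad4, the shared transducer of TGF-β and BMP signals, and the controls are heterozygous rather than wild type. Cre is made under the control of Myf5, a determination gene of skeletal muscle, so Smad4 is removed only from cells of the Myf5 lineage, while the RNA came from the whole tongue. The labels call the samples biological replicates, without litter or number of tongues per sample, so p values measure the spread between these samples. The comparison asks how expression in the tongue differs once the muscle lineage lacks Smad4.

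IGF1 and IGF2 are secreted growth factors that act through the receptor tyrosine kinase encoded by Igf1r and drive growth, survival and differentiation of embryonic tissues, skeletal muscle among them. Igf2r encodes the cation-independent mannose 6-phosphate receptor, which clears IGF2 and does not carry a growth signal of its own. The binding proteins hold the ligands in the blood and in the matrix and, depending on the protein and on the proteases that cut it, limit or prolong their action.

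The whole-series facts that bear on these genes are few. Smad4 itself differed by -0.15 ± 0.10 (SE) between groups (limma adjusted p = 0.427), and because other cells of the tongue keep the gene, this does not check the genotype. Myf5 fell by 1.81 ± 0.20 (SE, limma adjusted p = 0.000283), with no overlap between the groups. Defining markers of muscle (Myod1), mesenchyme (Prrx1), epithelium (Krt14), endothelium (Cdh5) and neurons (Tubb3) all had group means of at least 7.70, above 6.13, the median of all probe sets. Control 3, mutant 4 and mutant 6 carried signal of both the X-linked Xist and the Y-linked Eif2s3y, control 6 and mutant 6 had the lowest 18S signal, and mutants 1 and 2 had the highest scores on the first principal component, 24.7 and 20.3, where no control exceeded -9.44.

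In the mutant tongue the ligand gene Igf1 was higher, while its receptor gene Igf1r and the binding protein gene Igfbp3 were lower. These 3 of the 10 genes passed an adjusted p of 0.05 in limma, against 11.1% of all genes tested. One of 10 rose, where 6.30% of all genes did, and 2 of 10 fell, where 4.80% did. The same 3 genes were the members whose groups did not overlap on any array, against 6.30% of all genes. The median difference of the 10 genes was 0.06, beside 0.01 for all genes, and their differences ran from -0.44 to 0.42. The largest change, that of Igfbp3, was 1.36-fold. Whole tongue RNA does not tell fewer cells of a type from less RNA per cell.

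**Figure D1:**
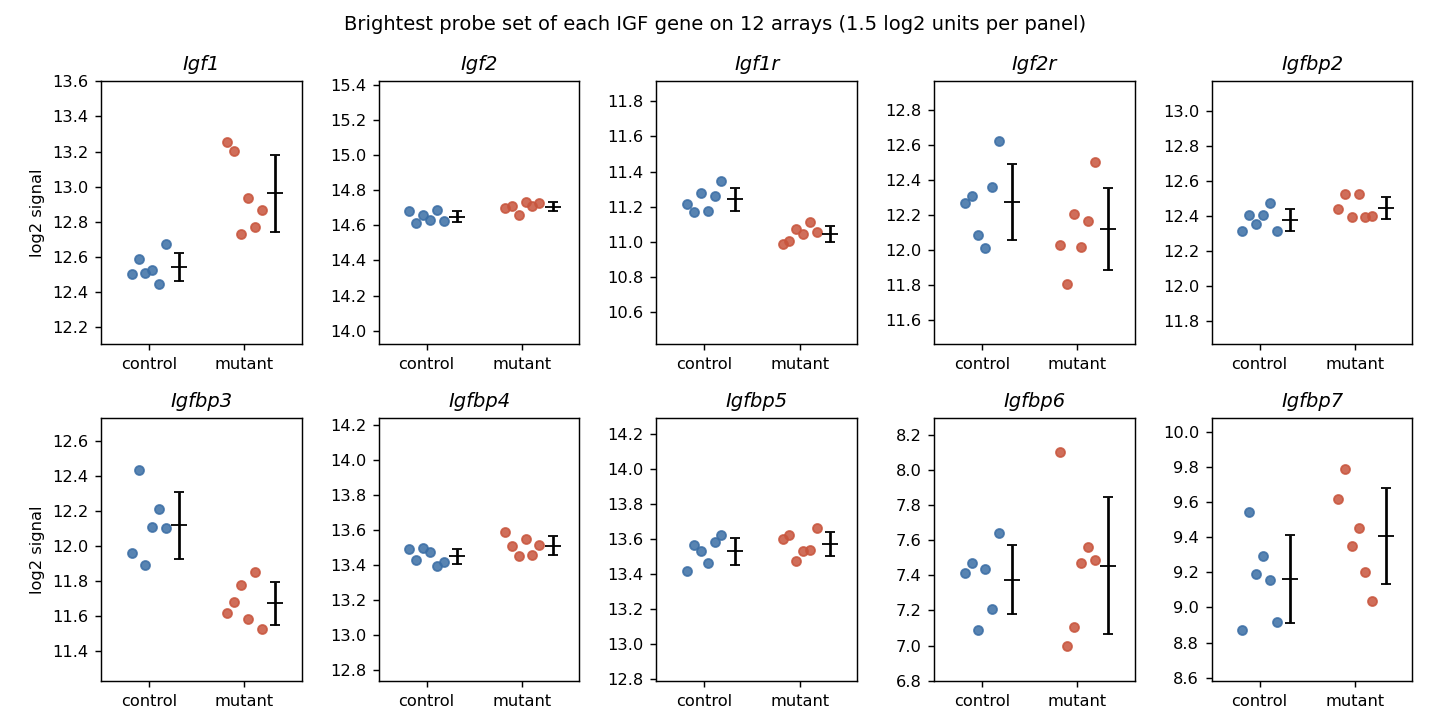
Log2 signal of the brightest probe set of each of the 10 IGF genes on each of 6 control (blue) and 6 mutant (red) arrays, with mean and SD in black; every panel spans the same range of 1.5 log2 units. Igf1 sits higher on all mutant arrays, Igf1r and Igfbp3 lower, and the groups overlap for the other 7 genes.

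Of the ligands, Igf1 rose. Its signal had a lowest, median and highest value of 12.45, 12.51 and 12.68 in controls and of 12.73, 12.90 and 13.26 in mutants. All 6 mutants were above all 6 controls, and mutants 1 and 2, at 13.26 and 13.21, stood highest while mutant 3 was nearest to the controls. The means were 12.54 ± 0.08 and 12.96 ± 0.22 (SD, n = 6 each), a rise of 0.42 ± 0.09 (SE) or 1.34-fold (limma adjusted p = 0.00792, 95% interval of the difference 0.23 to 0.61). Without mutants 1 and 2 the rise was 0.29 and still passed (adjusted p = 0.0190). The call was lost without control 3, mutant 4 and mutant 6, at a difference of 0.44 (adjusted p = 0.0534), and in an unequal-variance test (adjusted p = 0.0517).

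All 4 Igf1 probe sets had higher means in mutants, and 3 of them rose when each probe set was tested on its own. In that test 5.40% of all probe sets passed, 2.70% higher and 2.70% lower. The 3 that passed differed by 0.42 (1434413_at), 0.47 (1437401_at) and 0.58 (1419519_at), and on each of them the groups did not overlap. The remaining one, 1452014_a_at, differed by 0.37 ± 0.11 (SE) with an adjusted p of 0.0770 over all probe sets.

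Igf2, the other ligand, was at the top of the array's range in both groups. Its brightest probe set, 1448152_at, read 14.61, 14.64 and 14.69 (lowest, median and highest) in controls and 14.66, 14.71 and 14.73 in mutants. The difference of 0.06 ± 0.04 (SE) did not pass (limma adjusted p = 0.374), and its 95% interval ran from -0.02 to 0.13. The brightest signal on any array lay between 15.06 and 15.09, and just 71 of 45037 probe sets (0.158%) had a higher mean, so this probe set had little room to rise. A far dimmer Igf2 probe set, 1415931_at, read 8.76, 9.01 and 9.27 in controls and 8.29, 8.57 and 8.88 in mutants. Of the 6 mutants 5 lay under the lowest control, and the signal fell by 0.43 ± 0.11 (SE, adjusted p = 0.0332 over all probe sets).

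Both Igf2 probe sets are annotated to the same transcript record. With the brighter one so near the top of the range, the data give Igf2 no settled direction. Igf2os, a transcript of the opposite strand that overlaps Igf2 and was singled out after its value was seen, went from 9.94 to 9.57, with 6 of 6 mutants below all controls (-0.37 ± 0.05 SE, adjusted p = 0.000853 over all probe sets). The imprinted neighbour H19 shares its probe set with Mir675, which was also near the top of the range, at 14.51 in controls and 14.52 in mutants (adjusted p = 0.954 over all probe sets).

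Of the receptors, Igf1r fell by a small and even amount. Its brightest probe set, 1452982_at, read 11.17, 11.24 and 11.35 (lowest, median and highest) in controls and 10.99, 11.05 and 11.11 in mutants. The spread within a group was small (SD 0.07 and 0.05, n = 6 each), and no mutant reached the lowest control. The fall was 0.20 ± 0.04 (SE), from 11.24 to 11.05, or 1.15-fold (limma adjusted p = 0.0110, 95% interval of the difference -0.29 to -0.10). The difference was -0.19 without control 3, mutant 4 and mutant 6 (adjusted p = 0.0813) and -0.17 without mutants 1 and 2 (adjusted p = 0.0795), with fewer samples tested in both.

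Igf1r probe sets did not all move. The probe set 1426565_at fell by 0.22 ± 0.04 (SE, adjusted p = 0.00999 over all probe sets), again with no overlap between groups. The dimmer 1452108_at and 1446303_at, the latter under the median of all probe sets, differed by -0.22 and -0.37 and did not pass (adjusted p = 0.109 and 0.156). The second brightest, 1428967_at, was flat, at 10.40 ± 0.09 in controls and 10.39 ± 0.11 in mutants (SD, n = 6 each), although its record is the same sequence as that of the brightest. The gap between these probe sets, taken within each array, differed between groups by 0.19 (exact 2-sided permutation p = 0.00649), which did not pass over the 18 such pairs of member probe sets (adjusted p = 0.0584).

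Igf2r did not pass and varied widely within groups. It read 12.01, 12.29 and 12.62 (lowest, median and highest) in controls and 11.81, 12.10 and 12.50 in mutants. Control 6 and mutant 6 were the highest of their groups. The difference of -0.15 ± 0.12 (SE, limma adjusted p = 0.463) had a 95% interval from -0.40 to 0.09, so a fall as large as that of Igf1r lies within it. Its other probe set differed by -0.08.

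**Figure D2:**
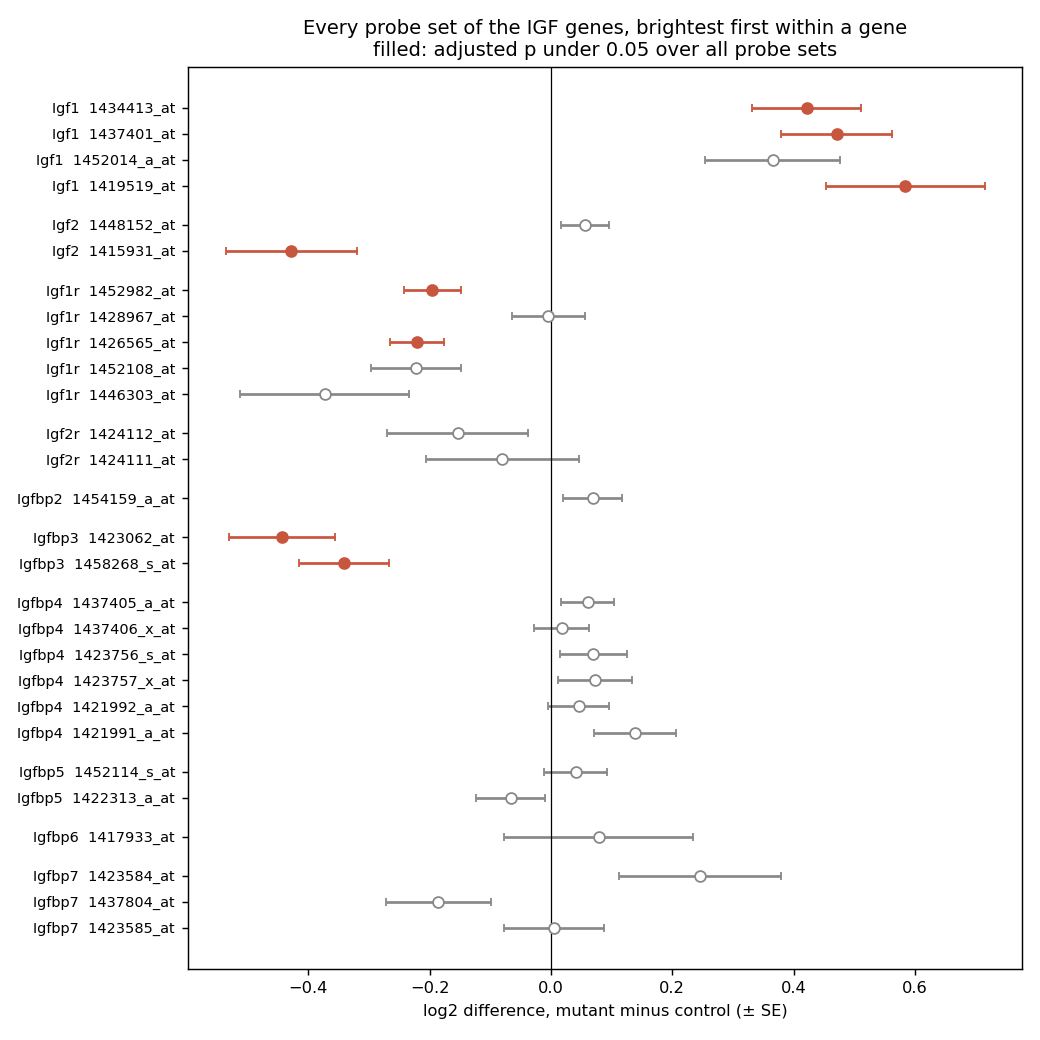
Log2 difference between mutant and control with its SE (horizontal axis) for each of the 28 probe sets of the 10 genes, brightest first within a gene; filled points passed an adjusted p of 0.05 over all probe sets. All 4 Igf1 points lie right of 0 and both Igfbp3 points left of it, while the points of Igf2, Igf1r, Igfbp5 and Igfbp7 are split or uneven.

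Of the binding proteins, Igfbp3 fell. IGFBP3 is the main carrier of IGFs in the circulation after birth and also acts locally in tissues. Its brightest probe set read 11.89, 12.10 and 12.43 (lowest, median and highest) in controls and 11.53, 11.65 and 11.85 in mutants. The highest mutant, mutant 5, stayed just under the lowest control, control 3. The means went from 12.12 ± 0.19 to 11.67 ± 0.12 (SD, n = 6 each), a fall of 0.44 ± 0.09 (SE) or 1.36-fold (limma adjusted p = 0.00497, 95% interval of the difference -0.63 to -0.26). It passed under all 25 other settings, with differences from -0.49 to -0.38 and adjusted p from 0.00233 to 0.0346. The second Igfbp3 probe set, 1458268_s_at, fell by 0.34 ± 0.07 (SE, adjusted p = 0.0158 over all probe sets). Its groups overlapped, with 5 of the 6 mutants under the lowest control. It is of a kind that can match transcripts of more than 1 gene.

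Igfbp1, the neighbour of Igfbp3 on its chromosome and a binding protein best known from the liver, belongs to the wider pathway and was singled out after its value was seen. It read 8.01 ± 0.24 in controls and 7.39 ± 0.27 in mutants (SD, n = 6 each), and 5 of the 6 mutants lay under the lowest control. The fall was 0.62 ± 0.13 (SE, limma adjusted p = 0.00792). Without mutants 1 and 2 it differed by -0.55 (adjusted p = 0.0585). The other neighbouring pair of binding protein genes, Igfbp2 and Igfbp5, was flat.

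Igfbp2, which is abundant in embryonic tissues, read 12.31, 12.38 and 12.48 (lowest, median and highest) in controls and 12.40, 12.42 and 12.53 in mutants (0.07 ± 0.05 SE, limma adjusted p = 0.392). Igfbp5, a binding protein of developing muscle and of connective tissue, read 13.42, 13.55 and 13.62 in controls and 13.48, 13.57 and 13.67 in mutants (0.04 ± 0.05 SE, adjusted p = 0.676). The 95% intervals of the difference, -0.03 to 0.17 for Igfbp2 and -0.06 to 0.15 for Igfbp5, leave out a fall of the size seen for Igfbp3. The brightest Igfbp5 probe set is of a kind that can match transcripts of more than one gene, and the dimmer one differed by -0.07.

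Igfbp4, a binding protein that mostly restrains IGF action and is cut by the protease PAPP-A, was measured by 6 probe sets. They differed by 0.018 to 0.14, and none passed in limma over all probe sets (unadjusted p from 0.0578 to 0.7). The brightest read 13.39, 13.45 and 13.50 (lowest, median and highest) in controls and 13.45, 13.51 and 13.59 in mutants, with a difference of 0.06 ± 0.04 (SE, limma adjusted p = 0.396). Its 95% interval ran from -0.03 to 0.15.

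The remaining binding proteins were the most variable of the 10 genes. Igfbp6, which prefers IGF2 as its ligand, read 7.09, 7.42 and 7.64 in controls and 6.996, 7.48 and 8.10 in mutants, where mutant 1 was highest and mutant 2 lowest of all 12 arrays. The difference of 0.08 ± 0.16 (SE, limma adjusted p = 0.816) was smaller than the spread, and its 95% interval of -0.26 to 0.41 is the widest of the 10 genes. Igfbp7, a low-affinity binding protein of vessel walls and matrix, read 8.87, 9.17 and 9.54 in controls and 9.04, 9.40 and 9.79 in mutants. It differed by 0.25 ± 0.13 (SE, adjusted p = 0.283), with a 95% interval of -0.04 to 0.53. Its dimmer probe sets differed by -0.19 and 0.01, so the data give Igfbp7 no settled direction.

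**Figure D3:**
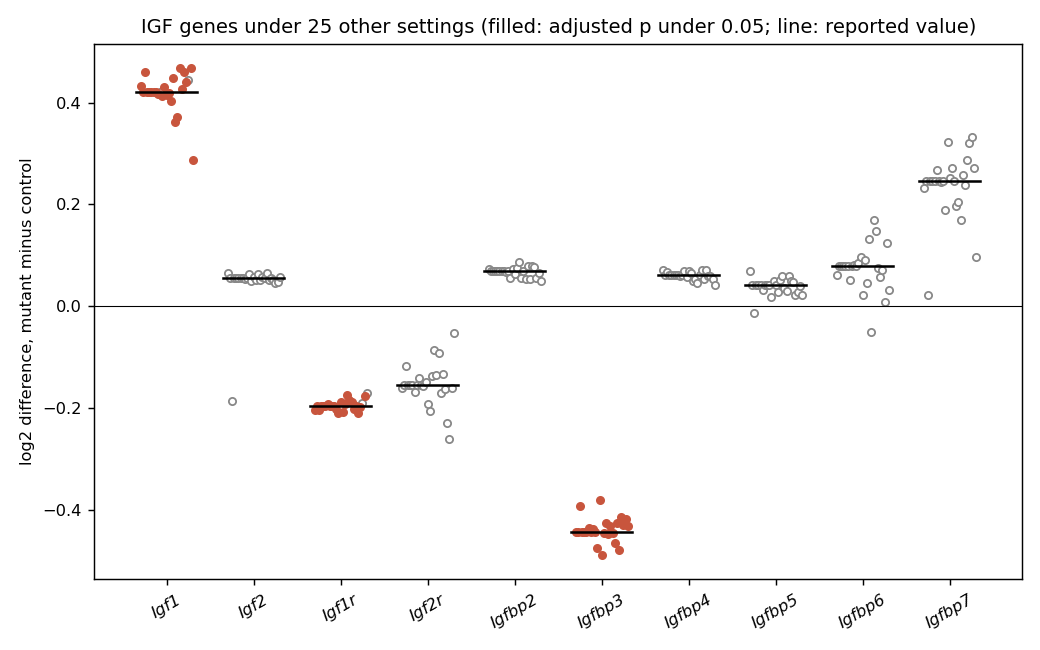
Log2 difference between mutant and control for each of the 10 genes under 25 other settings (points) and as reported (line); filled points passed an adjusted p of 0.05. Igfbp3 passed under all 25 settings and Igf1 and Igf1r under 23 each, and the other 7 genes under none.

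The windows just before the start sites of the 3 genes that passed are shown because Smad4 protein binds DNA at short motifs. Each covers 250 bases up to the RefSeq start site, is written 5′ to 3′ on the strand of the gene, and has in capitals every match to the SMAD motifs CAGAC and GGCGC on either strand (GTCTG and GCGCC on the other). The motifs can overlap each other by 1 base, and GGCGC can overlap its own reverse complement by 4.

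Igf1 (GRCm38.p6, chr10:87860861-87861110, plus strand): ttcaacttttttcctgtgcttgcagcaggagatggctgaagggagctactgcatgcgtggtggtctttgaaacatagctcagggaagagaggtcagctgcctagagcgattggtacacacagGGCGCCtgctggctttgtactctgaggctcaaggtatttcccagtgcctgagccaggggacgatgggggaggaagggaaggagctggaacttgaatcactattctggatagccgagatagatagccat

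Igf1r (GRCm38.p6, chr7:67952007-67952256, plus strand): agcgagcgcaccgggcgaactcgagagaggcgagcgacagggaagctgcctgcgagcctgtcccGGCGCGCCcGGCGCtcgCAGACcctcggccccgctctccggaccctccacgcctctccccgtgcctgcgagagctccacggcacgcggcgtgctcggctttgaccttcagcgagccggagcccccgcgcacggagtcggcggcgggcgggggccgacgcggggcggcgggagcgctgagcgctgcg

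Igfbp3 (GRCm38.p6, chr11:7213924-7214173, minus strand): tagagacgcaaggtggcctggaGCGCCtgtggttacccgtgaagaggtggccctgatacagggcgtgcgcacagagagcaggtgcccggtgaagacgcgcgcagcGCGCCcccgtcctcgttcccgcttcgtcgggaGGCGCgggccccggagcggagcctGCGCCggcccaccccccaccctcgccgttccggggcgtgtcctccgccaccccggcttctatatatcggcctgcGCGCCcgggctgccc

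The Igf1 window held GGCGC on each strand as a single overlapping pair and no CAGAC. The Igf1r window held 1 CAGAC and 3 matches to GGCGC, close together, and the Igfbp3 window held no CAGAC and 5 matches to GGCGC. Of 32851 promoter windows of the same length, 42.2% held CAGAC and 32% held GGCGC. Windows of members that did not pass held the motifs too. Igf2r had 2 CAGAC and 1 GGCGC, Igfbp4 2 GGCGC, Igfbp5 1 GGCGC and Igfbp6 1 CAGAC. Igf2 and Igfbp2 have several windows, with up to 2 CAGAC and 1 GGCGC for Igf2 and up to 1 CAGAC for Igfbp2. The Igfbp7 window held neither motif. The bases G and C made up 52.8% of the Igf1 window, 77.6% of that of Igf1r and 73.2% of that of Igfbp3, and GGCGC is itself made of these bases. The matches describe the letters of these windows and say nothing of binding.

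Markers of several cell types differed between the same arrays. Of 12 measured markers of skeletal muscle 11 fell and none rose, and their summed linear signal ran from 91841 to 106750 in controls and from 63681 to 83725 in mutants. Of 10 markers of cranial mesenchyme 7 rose and 1 fell (10317 to 11933 in controls, 12780 to 15756 in mutants). Of 8 cartilage markers 4 rose and 1 fell (1830 to 2585 and 2655 to 3467), and all 7 measured neuron markers rose (1525 to 1911 and 2405 to 4113). The mean log2 signal of each of these 4 lists separated the groups on all 12 arrays (exact 2-sided permutation p = 0.00216, the smallest possible, adjusted p = 0.00595 over 11 lists). The mean of the macrophage list lay above the highest control on 5 mutant arrays (adjusted p = 0.0286), with 1 of 8 markers passing. Oral epithelium (adjusted p = 0.0794), erythroid cells (0.143), interstitial matrix (0.289), Schwann cells and glia (0.312), endothelium (0.361) and smooth muscle with pericytes (0.361) did not pass. Of these lists, 2 had summed signals that did not overlap although their means did: smooth muscle with pericytes ran from 22365 to 24954 in controls and from 17232 to 21714 in mutants, and Schwann cells and glia from 3073 to 3543 and from 2341 to 2739. The part of these cell types in the differences of Igf1, Igf1r and Igfbp3 was not tested.

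Mutants 1 and 2, where Igf1 was highest, had the highest neuron means (1.01 and 1.21 above the control mean) and the highest mesenchyme means (0.34 and 0.35). Among mutants these arrays were also highest for oral epithelium (0.41 and 0.43), interstitial matrix (0.14 and 0.14) and smooth muscle with pericytes (0.04 and 0.05). On the remaining lists they were not the 2 highest mutants, so the pattern was not particular to neurons and mesenchyme. Mutant 3, where Igf1 was lowest among mutants, had the next highest neuron mean (0.93). The muscle mean ordered some arrays as Igfbp3 and Igf1r did and others not. Mutant 5, with the muscle mean nearest to the controls among mutants (-0.55), had the highest Igf1r (11.11) and Igfbp3 (11.85) of the mutants. Mutant 1, with the lowest muscle mean (-1.08), had the lowest Igf1r (10.99). Mutant 6 had the lowest Igfbp3 of all arrays (11.53) with a muscle mean of -0.65, the second nearest to the controls among mutants. Control 2, with the highest muscle mean (0.17), had the highest Igfbp3 (12.43) and the lowest Igf1r (11.17) of the controls.

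**Figure D4:**
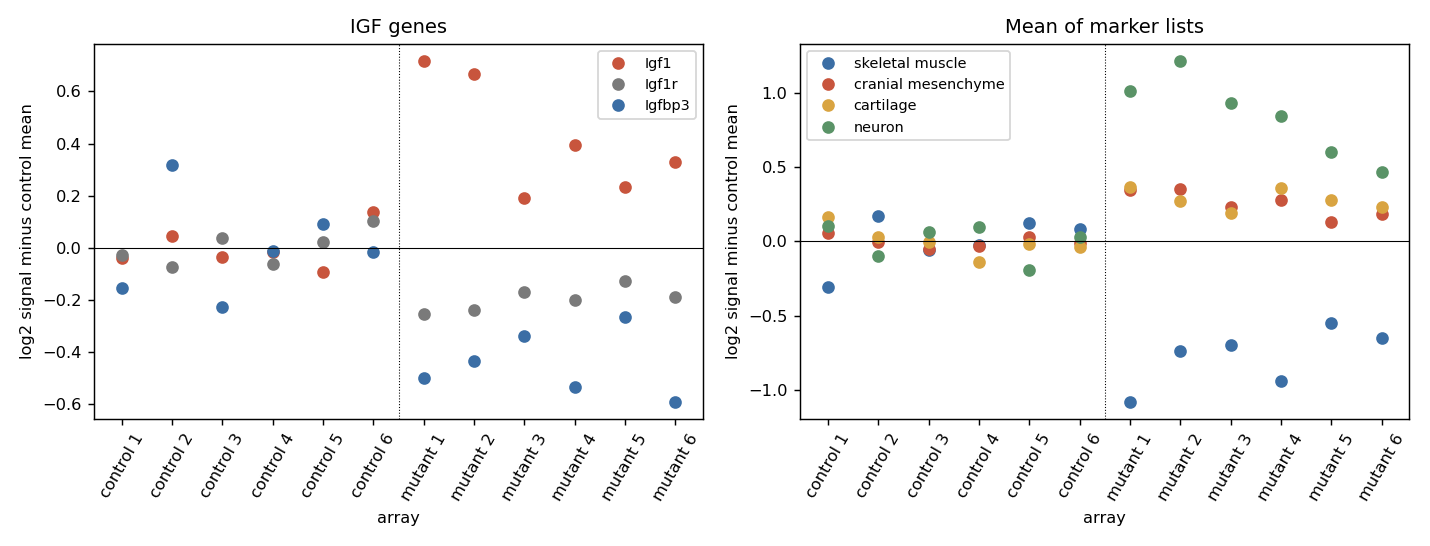
Left, log2 signal of Igf1, Igf1r and Igfbp3 on each array minus the control mean; right, the mean of 4 marker lists on the same arrays, also minus the control mean. On mutants 1 and 2 Igf1 and the mesenchyme and neuron lists are highest, while Igfbp3 is lowest on mutant 6 and the muscle list on mutant 1.

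For each gene that passed, the 2 genes most like it were found by Pearson's r over the 12 arrays after each group's mean was subtracted, among 12164 genes at or above the median signal. Igf1 was most like Cpt1c (r = 0.946), a carnitine palmitoyltransferase of neurons, and Col11a1 (r = 0.936), a collagen of cartilage and fibrils. Col11a1 rose by 0.44, while Cpt1c differed by 0.27 and did not pass (limma adjusted p = 0.115). Igf1r was most like Spg7 (r = 0.942), a mitochondrial protease, and Prkg1 (r = 0.918), a cGMP-dependent kinase. Spg7 differed by -0.06 and did not pass (adjusted p = 0.645), while Prkg1 fell by 0.44. Igfbp3 was most like Rai2 (r = 0.989) and the mitochondrial carrier Slc25a24 (r = 0.967), which fell by 0.69 and 0.22. The Rai2 call was weak (adjusted p = 0.0413). The points share arrays and normalisation, and the best of many genes is high by selection.

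Of the wider pathway, 57 of 63 listed genes were measured, and 6 rose and 11 fell, against 6.30% and 4.80% of all genes. Their median difference was 0.01, the same as for all genes. The kinase genes Akt1, Akt2 and Mtor, singled out after their values were seen, differed by 0.0043, -0.0016 and 0.046 and did not pass.

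Of 10 other binding proteins, proteases and their regulators, 4 fell and 2 rose. Stc1, a stanniocalcin, which inhibits the proteases that cut IGF binding proteins, fell most, from 9.02 ± 0.32 to 7.98 ± 0.26 (SD, n = 6 each; -1.04 ± 0.15 SE, limma adjusted p = 0.000783). All 6 mutants lay below the controls. Pappa2, a protease that cuts IGFBP3 and IGFBP5, rose from 8.78 ± 0.19 to 9.51 ± 0.38 (0.73 ± 0.15 SE, adjusted p = 0.00711), and 5 mutants lay above all controls. Pappa, the protease of IGFBP4, rose from 6.33 to 7.03 (0.70 ± 0.19 SE, adjusted p = 0.0286), with controls near 6.13, the median of all probe sets. It was named after its value was seen, as was Stc2, which fell by 0.24 and passed under 9 of 25 other settings. The serine protease Htra3 fell from 6.98 to 6.21, with mutants near that median (-0.78 ± 0.15 SE, adjusted p = 0.00504).

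Several of these values depend on the probe set or on a few arrays. With the mean of all probe sets Stc1 fell by 0.61, Htra3 by 0.32, Pappa rose by 0.27 and Stc2 differed by 0.039. Without mutants 1 and 2 Pappa2 differed by 0.64 (limma adjusted p = 0.0556) and Pappa by 0.53 (0.168), and Pappa also lost its call without mutant 1, mutant 2 or control 4 alone (0.64, 0.62 and 0.66).

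Of 5 measured genes that are imprinted, as Igf2 is, or bind its mRNA, none passed in limma. Plagl1 (14.53 in controls) and Cdkn1c (14.34) were near the top of the range, as Igf2 was, and had little room to rise. Igf2bp1, which binds Igf2 mRNA, had the smallest p and differed by -0.17 ± 0.07 (SE, adjusted p = 0.145, unadjusted p = 0.0292).

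Of 12 receptor adaptors, 2 fell and 1 rose. Grb2, which links receptors to Ras, fell from 10.26 ± 0.06 to 9.89 ± 0.12 (SD, n = 6 each; limma adjusted p = 0.00126), with all 6 mutants below the controls, and by 0.22 with the mean of its probe sets. Irs1, the insulin receptor substrate that docks to Igf1r, fell by 0.25 ± 0.06 (SE, adjusted p = 0.0214). Without mutant 1 or mutant 2 alone Irs1 lost its call, at -0.23 and -0.22. Sos1 rose by 0.16 and passed under 8 of 25 other settings. With the mean of its probe sets Sos1 differed by 0.017 (adjusted p = 0.874).

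Of 17 genes of PI3K, Akt and Foxo, 3 fell and 1 rose. Trim63, a muscle ubiquitin ligase under Foxo control, fell from 9.48 ± 0.18 to 8.36 ± 0.32 (SD, n = 6 each), 2.17-fold (limma adjusted p = 0.000338). Foxo4 fell by 0.39 (by 0.25 with the mean of its probe sets) and Foxo1, named after its value was seen, by 0.21. With the mean of its probe sets Foxo1 differed by -0.13 (adjusted p = 0.0814). It passed under 14 of 25 other settings, and lost its call without control 1, 2 or 6 or mutant 2, 3, 4 or 5. Pik3r3, a regulatory subunit of PI3K, rose from 9.56 ± 0.14 to 10.05 ± 0.09, above all controls on 6 of 6 arrays (adjusted p = 0.000526).

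Of 13 genes of the mTOR complexes and their regulators, 2 fell and 2 rose. Deptor, an inhibitor of mTOR, fell by 0.79 ± 0.13 (SE, limma adjusted p = 0.00182), and Eif4ebp1, the translation repressor that mTOR inactivates, fell by 0.61 ± 0.09 (SE, adjusted p = 0.000905). Ddit4, a stress-induced mTOR inhibitor, rose by 0.33 ± 0.06 (SE, adjusted p = 0.00371). On each of these 3 genes the groups did not overlap. Mlst8, named after its value was seen, rose by 0.17 and passed under 6 of 25 other settings. Trim63, Stc1, Deptor and Eif4ebp1 lay below all controls on all 6 mutant arrays, as did Grb2, Foxo4 and the mean of the muscle list. Any gene with all mutants below the controls shares this, so it does not link these genes to muscle. The part of muscle content in their falls was not tested.

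**Figure D5:**
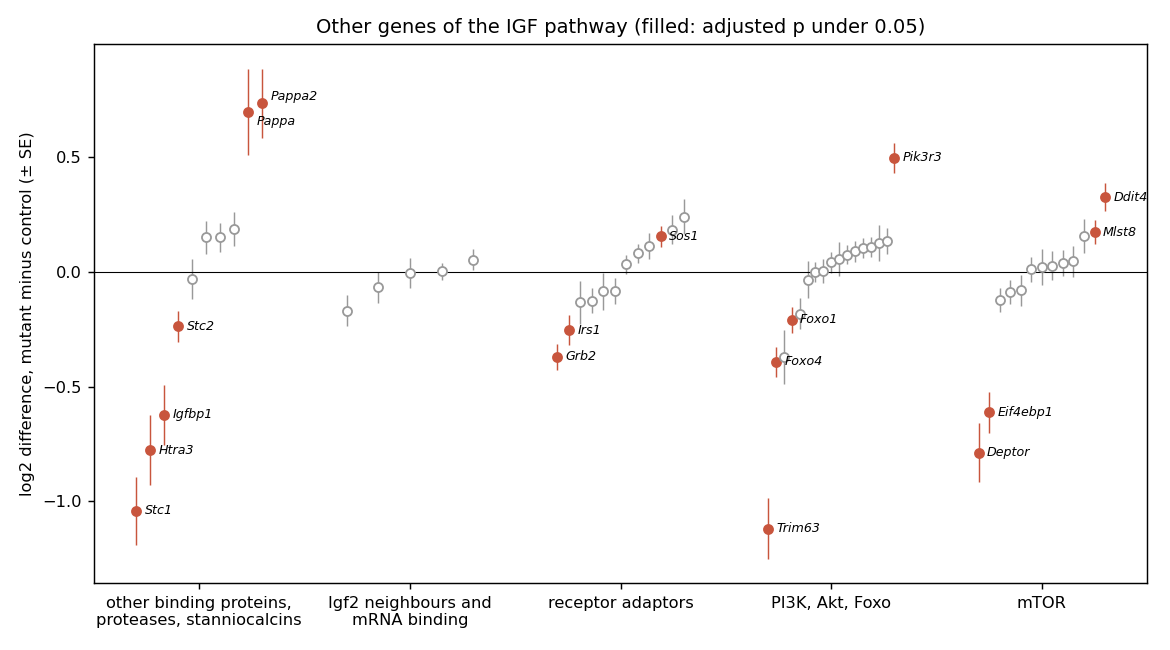
Log2 difference between mutant and control with its SE (vertical axis) for the 57 measured genes of 5 pathway groups, ordered by value within each group; filled and named points passed an adjusted p of 0.05. The largest falls are Trim63 and Stc1, and the largest rises Pappa2 and Pappa.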

How the data were processed

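The authors deposited 1 value per probe set and array on a log2 scale, and per the submitters' processing notes the method was RMA, which corrects background, normalises arrays to each other and combines probes, so a shift shared by most genes is hidden and changes of dim or near-saturated probe sets are understated. The sources used here give neither a software version nor the log base, and base 2 was taken from the range of 2.57 to 15.09. An array has no read depth, so precision depends on how many arrays there are.

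The table holds 45101 probe sets, of which 64 controls were dropped. Probe sets with 1 gene symbol in the platform annotation (34945) were used for genes, 932 had several and 9160 none. For 34741 of these the symbol was looked up by gene identifier in RefSeq (GRCm38.p6), and 0 changed. The 10 genes, the lists and the settings were chosen with earlier results of these data known. Genotypes were tested with limma (version 3.58.1, R 4.3.3) using 2-sided tests with genotype as sole factor. P-values were adjusted by Benjamini-Hochberg over 18193 genes and, for single probe sets, over 45037. The model was tested on simulated data. List means and probe set gaps were compared by exact permutation over the arrays; the probe set gaps and the Eif2s3y covariate were added after the data were seen. Named genes were the 10 members, up to 3 passing genes of each pathway list by smallest p (or the one with the smallest p), 2 genes most like each passing member, and Smad4, Myf5 and 5 defining markers as checks. Promoter windows came from RefSeq (GRCm38.p6). No arrays were duplicates: correlations ran from 0.991 to 0.997.

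The settings tried were quantile normalisation, median centring, averaged probe sets, every probe set alone, dim genes removed, array weights, a robust variance with trend, the replicate block, a sex covariate, an unequal-variance test, each array left out, and 3 sets of arrays left out.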

Additional observations from a re-analysis of the deposited data

Results flagged for a closer look

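Of 108 groups of 6 arrays checked for 1 value far from the rest, 5 (4.63%) held one, where chance gives about 1 in 20. Smad4 on mutant 1 was 11.58, with the nearest mutant at 12.18. Htra3 on mutant 6 was 6.85, with the nearest mutant at 6.15. Eif4ebp1 on control 2 was 11.49, with the nearest control at 11.20. Deptor on control 1 was 8.48, with the nearest control at 8.87. Col11a1 on control 6 was 9.30, with the nearest control at 9.09. None of the 28 probe sets of the 10 IGF genes held such a value.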

How the results depend on the processing

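With any 1 array left out, 1 IGF gene rose and 2 fell in each of 12 cases, and the pathway counts ran from 3 to 6 genes higher and from 8 to 11 lower (6 and 11 as reported). Without control 3, mutant 4 and mutant 6, 0 IGF genes rose (Igf1 0.44, limma adjusted p = 0.0534), 1 fell and 3 pathway genes rose, with fewer samples tested. Without mutants 1 and 2, 1 IGF gene fell, and 2 pathway genes rose and 7 fell. In the unequal-variance test 0 IGF genes rose. Stc2 turned to 0.039 with the mean of its probe sets; the cause was not tested. The planned covariate with Ddx3y was not run, and Eif2s3y took its place. The labels do not say that same-numbered arrays belong together. Their deviations from the group means correlated at 0.12 to 0.24 for 5 numbers and at -0.06 for number 3. For 4 of the 6 numbers the mutant correlated best with the control of its own number, where about 1 of 6 would if numbers carried no meaning. These values thus do not show same-numbered arrays to be unrelated. The main test did not take the numbers as pairs because the labels name no pairs. With the replicate block 1 IGF gene rose and 2 fell, and 4 pathway genes rose and 10 fell, without Sos1 (limma adjusted p = 0.062), Mlst8 (0.0866) and Stc2 (0.0523). Near-saturated signal limits Igf2.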
